A study of Mus musculus with 7 samples.

Results

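The RNA level of 10 genes of the heart was followed across whole embryos with and without SLMAP3. They were the rows of the deposited table with the symbols Nppa, Nppb, Myh6, Myh7, Myl2, Myl3, Myl7, Tnni3, Nkx2-5 and Gata4, 10 of 25461 genes, and each symbol was found once. The embryos were of strain B6C3F1 at embryonic day 11.5, 3 with the genotype SLMAP3 knockout (KO; KOAC8-6, KOAC10-5 and KOAC10-8) and 4 wildtype (WT; KOAC8-1, KOAC10-7, KOAC9-1 and KOAC10-2), each sequenced on its own after the tail had been taken for genotyping. The KO allele lacks exon 3 of Slmap in every tissue, after deletion with a CMV-driven Cre and further breeding of heterozygotes without Cre, and it removes the long SLMAP3 isoform while the shorter SLMAP isoforms can still be made. Levels are in FPKM, which corrects fragment counts for transcript length and depth, so genes of different length can be set side by side.

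The heart is a working pump by midgestation, when its atria and ventricles already use partly different contractile proteins. Atrial muscle is rich in the myosin heavy chain of Myh6 and the regulatory light chain of Myl7, and ventricular muscle in those of Myh7 and Myl2, while Nppa and Nppb encode the natriuretic hormones that muscle cells of the chambers secrete. NKX2-5 and GATA4 are transcription factors of the early heart that bind control regions of many of these genes. In RNA of a whole embryo, fewer cells of a type and less RNA per cell cannot be told apart.

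SLMAP transcripts were lower in the KO embryos, as a check on the labels. Slmap stood at 19.6, 16.0 and 16.6 FPKM in KOAC8-6, KOAC10-5 and KOAC10-8, and at 31.2, 23.9, 29.1 and 22.8 FPKM in KOAC8-1, KOAC10-7, KOAC9-1 and KOAC10-2. No KO embryo reached the WT range (log2 fold change -0.59, SE 0.13, limma adjusted p = 0.278), and the values count all isoforms together. Of the cardiac genes, Myh6 and Myh7 (28.4 Mb away) and Gata4 (36.7 Mb away) lie on the same chromosome as Slmap, and whether they share alleles linked to it was not tested. The fragments counted on genes, 54200000 to 81600000 in each embryo, were estimated from the spacing of low FPKM values and the authors' mean counts, and the depth ran from 0.805 to 1.21 times the average, with KO embryos at 1.06 to 1.14. Liver transcripts were low in some embryos of both genotypes. Afp, an abundant fetal liver product, was under 10 FPKM in KOAC10-5, KOAC10-7 and KOAC10-2, and at 255 to 376 FPKM in the other 4. Skeletal muscle markers differed with genotype, and their sum was 84.2 to 152 FPKM in KO and 224 to 376 FPKM in WT embryos. The part of either tissue in the cardiac results was not tested beyond the values given beside them.

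Promoters of 9 of the 10 genes were matched in the RefSeq table (build GRCm38.p6), Gata4 being the exception. The 4 windows printed here were chosen because they hold letters that the cardiac factors and the serum response factor are known to bind. Each runs 5′ to 3′ over the 250 bases before the RefSeq start, and capitals mark GATA sites (AGATAA or AGATAG or TGATAA or TGATAG, on either strand), CArG boxes, which bind the serum response factor, and TATA boxes (TATAAA, also on either strand).
Nppb promoter: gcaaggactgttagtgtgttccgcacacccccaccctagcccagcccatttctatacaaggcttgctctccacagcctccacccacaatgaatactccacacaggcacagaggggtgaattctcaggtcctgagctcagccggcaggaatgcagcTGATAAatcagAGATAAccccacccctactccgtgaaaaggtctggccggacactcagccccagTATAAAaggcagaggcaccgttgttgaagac
Nppa promoter: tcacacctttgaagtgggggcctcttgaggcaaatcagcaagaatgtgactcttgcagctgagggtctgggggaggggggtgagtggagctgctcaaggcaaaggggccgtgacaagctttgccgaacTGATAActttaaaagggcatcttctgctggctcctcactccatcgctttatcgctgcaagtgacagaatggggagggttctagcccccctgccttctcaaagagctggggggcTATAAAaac
Myl7 promoter: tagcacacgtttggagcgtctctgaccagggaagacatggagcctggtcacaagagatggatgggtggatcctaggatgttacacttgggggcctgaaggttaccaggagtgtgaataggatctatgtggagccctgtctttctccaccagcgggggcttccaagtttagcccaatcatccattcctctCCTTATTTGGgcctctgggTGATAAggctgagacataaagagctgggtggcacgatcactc
Myl3 promoter: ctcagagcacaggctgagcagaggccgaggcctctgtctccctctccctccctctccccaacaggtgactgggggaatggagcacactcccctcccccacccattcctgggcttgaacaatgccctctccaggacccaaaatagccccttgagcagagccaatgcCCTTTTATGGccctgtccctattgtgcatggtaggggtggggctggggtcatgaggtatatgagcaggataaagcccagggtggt
The Nppb window is chr4:147985650-147985899 on the plus strand and the Nppa window chr4:148000472-148000721 on the plus strand, with the Nppa gene 13516 bp beyond the end of Nppb. The Myl7 window is chr11:5898783-5899032 on the minus strand, and the Myl3 window chr9:110763428-110763677 on the plus strand. For Nppb and Myl3 the RefSeq start lies inside the gene as GENCODE draws it, so those windows overlap the gene's coordinates given with its values.

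GATA sites lay at 95 and 84 bases before the start of Nppb, at 122 bases before Nppa and at 42 bases before Myl7. The 9 genes have 11 windows, Myl2 and Myh7 having more than 1, and a gene was counted when any of its windows, with the 50 bases after the start, held the letters. A GATA site was found for 6 of the 9 genes (Nppa, Nppb, Myh6, Myl2, Myl3 and Myl7) and for 33% of 27025 genes counted the same way. CArG boxes were found at 61 bases before Myl7 and 85 bases before Myl3, against 1.81% of all genes. TATA boxes were found for 4 genes (Nppa, Nppb, Myh6 and Myl2; 15.7% of all), 31 bases before Nppb and 9 bases before Nppa. An NKX2-5 site (TNAAGTG, either strand) was present for Nppa and Myh7 and for 13.1% of all genes, and a MEF2 site for none of the 9 and for 3.7% of all. The Myl3 GATA site and the Myh6 TATA box lie after the start. The Myl2 windows with matches begin at chr5:122092474 and chr5:122092939, well before the gene as GENCODE draws it (chr5:122100951-122113472). These matches describe the letters of the windows and say nothing of binding in these embryos.

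The cardiac genes spanned a wide range of levels. In WT embryos Myl2 was the most abundant at 148 ± 10.4 FPKM (SD, n = 4), followed by Myl7 at 92.8 ± 8.63, Nppa at 66.0 ± 10.74, Myh7 at 59.0 ± 7.04, Myh6 at 43.2 ± 8.99, Myl3 at 42.6 ± 5.44 and Tnni3 at 24.3 ± 4.22 FPKM. Nppb at 6.45 ± 2.09, Gata4 at 5.10 ± 1.14 and Nkx2-5 at 2.04 ± 0.282 FPKM were the lowest. Along this order the WT ranges overlapped between Nppa and Myh7, between Myh7 and Myh6, between Myh6 and Myl3, and between Nppb and Gata4. The other neighbours did not overlap. Within each WT embryo Myh7 was still above Myh6, with Myh6 over Myh7 at 0.628 to 0.802. With the 7 embryos of both genotypes averaged, the mean of Myl2 was higher than that of 97.2% of all 25461 genes. The mean of Nkx2-5 over the same embryos was higher than that of 45.7%.

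All 10 cardiac genes had a log2 fold change (KO minus WT, on log2(FPKM + 1)) above 0, from 0.02 for Nppa to 0.42 for Myl7, with a median of 0.27 against 0.01 for all 16095 genes tested. Of all genes tested, 53.1% had a log2 fold change above 0. None of the 10 passed limma's test at an adjusted p under 0.05 (6 of 16095 genes, 0.0373%), and 4 of them, Myh6, Myh7, Myl3 and Myl7, had an unadjusted p under 0.05, all higher in KO. That direction and threshold were met by 5.27% of all genes, and either direction by 11.5%. In none of the 10 did the KO embryos all lie above the WT embryos, as they did in 5.61% of genes, or all below, as in 5.98%. The 4 were measured in the same embryos and are not independent of each other.

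**Figure D1:**
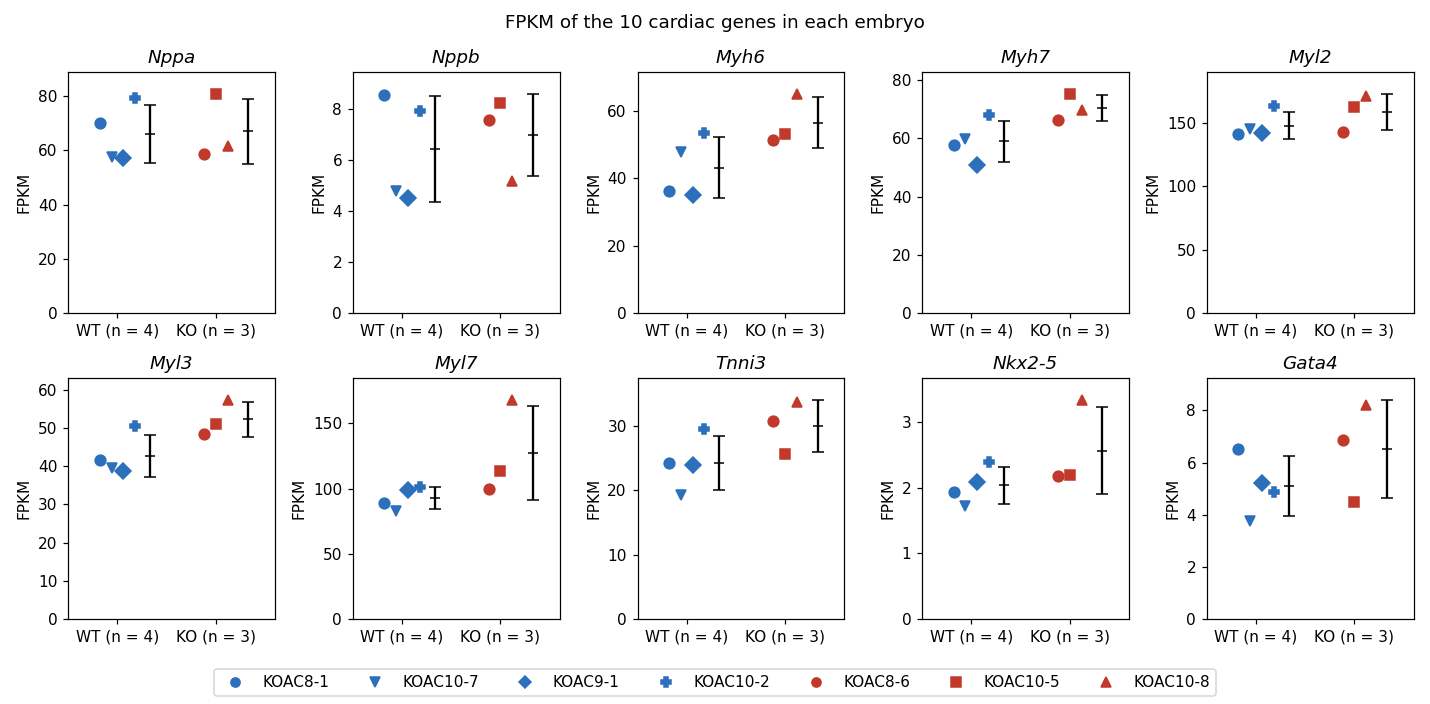
FPKM of each cardiac gene in every embryo, WT in blue and KO in red, with 1 symbol per embryo and the mean and SD of each group as a black bar. KO and WT embryos overlap in all 10 panels, and KOAC10-8 (red triangle) is the highest embryo in 7 of them.

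Nppa, the atrial natriuretic peptide gene (ENSMUSG00000041616, chr4:148000722-148002079, plus strand, GRCm38), was at 58.8, 80.9 and 61.5 FPKM in KOAC8-6, KOAC10-5 and KOAC10-8, and at 70.3, 57.5, 57.2 and 79.3 FPKM in KOAC8-1, KOAC10-7, KOAC9-1 and KOAC10-2. The highest embryo of each genotype came from series KOAC10, and the genotypes spanned nearly the same range. The means were 67.1 ± 12.1 FPKM (SD, n = 3) in KO and 66.0 ± 10.74 FPKM (n = 4) in WT, a log2 fold change of 0.02 (SE 0.15, limma adjusted p = 0.968). Gm13054, an antisense RNA, shares 53.4% of the 50-base stretches of Nppa transcripts and was at 0.654 to 1.49 FPKM. The library kit does not mark strand, so reads of the 2 cannot be told apart where they overlap.

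Nppb, which encodes the brain natriuretic peptide (ENSMUSG00000029019, chr4:147985788-147987205, plus strand), had KO levels of 7.57, 8.24 and 5.17 FPKM in the same order of embryos and WT levels of 8.55, 4.79, 4.52 and 7.92 FPKM. KOAC8-1, a WT embryo, was the highest and KOAC9-1, another, the lowest. The means of 6.99 ± 1.61 FPKM in KO and 6.45 ± 2.09 FPKM in WT gave a log2 fold change of 0.12 (SE 0.24, limma adjusted p = 0.870). KOAC10-8, the highest embryo for 7 of the other 8 genes, was below the mean of the 7 embryos for both hormone genes. The lowest estimated count of Nppb was 143 fragments, in KOAC10-7, which alone gives a counting error of 8.36%.

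Myh6, the alpha heavy chain of atrial muscle (ENSMUSG00000040752, chr14:54941921-54966927, minus strand), was at 51.4, 53.1 and 65.1 FPKM in KOAC8-6, KOAC10-5 and KOAC10-8. Its WT values were 36.2, 47.8, 35.2 and 53.6 FPKM in KOAC8-1, KOAC10-7, KOAC9-1 and KOAC10-2. Only KOAC10-2 among the WT embryos reached the KO range. The means were 56.5 ± 7.45 FPKM in KO and 43.2 ± 8.99 FPKM in WT, a log2 fold change of 0.40 (SE 0.17, limma unadjusted p = 0.0476, adjusted p = 0.432).

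Myh7 encodes the beta heavy chain, the main form of ventricular muscle before birth (ENSMUSG00000053093, chr14:54970684-54994626, minus strand), and it lies 3756 bp from Myh6. It was at 66.3, 75.3 and 69.8 FPKM in KOAC8-6, KOAC10-5 and KOAC10-8 and at 57.7, 59.6, 50.8 and 67.9 FPKM in KOAC8-1, KOAC10-7, KOAC9-1 and KOAC10-2. KOAC10-2 was again the 1 WT embryo inside the KO range, above KOAC8-6 alone. The mean was 70.4 ± 4.53 FPKM in KO and 59.0 ± 7.04 FPKM in WT, a log2 fold change of 0.26 (SE 0.10, limma unadjusted p = 0.0336, adjusted p = 0.403). Myh6 and Myh7 are near copies, and 20.2% of the 50-base stretches of Myh6 transcripts also occur in Myh7, so part of their reads could have been assigned to either. Myh7 also overlaps the antisense RNA Mhrt, which was at 0.154 to 0.961 FPKM. Gm29015, another antisense RNA within Myh7, was at 6.51, 8.40 and 14.998 FPKM in KOAC8-6, KOAC10-5 and KOAC10-8 and at 3.31, 0, 4.86 and 0 FPKM in KOAC8-1, KOAC10-7, KOAC9-1 and KOAC10-2, all KO values above all WT values. All KO values lay above all WT values in 5.61% of all genes tested. Gm29015 and Myh7 overlap over 331 bp as genes, introns included. Gm29015 shares 0.519% of the 50-base stretches of Myh7 transcripts and 0.365% of those of Myh6. Where stretches are shared, its reads cannot be told from those of Myh7 or Myh6.

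Myl2 encodes the ventricular regulatory light chain (ENSMUSG00000013936, chr5:122100951-122113472, plus strand) and had KO levels of 143, 162 and 171 FPKM against WT levels of 141, 146, 142 and 163 FPKM, with the embryos in the order used above. The genotypes overlapped almost wholly, and KOAC8-6 fell among the lowest WT embryos. The means were 159 ± 14.2 FPKM in KO and 148 ± 10.4 FPKM in WT (log2 fold change 0.10, SE 0.08, limma adjusted p = 0.648). Of the 10 genes it varied least, by 1.21 times between the lowest and the highest embryo, and its log2 fold change was 0.05 without KOAC10-8 and 0.17 without KOAC8-6.

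Myl7, the atrial regulatory light chain gene (ENSMUSG00000020469, chr11:5896637-5898782, minus strand), was at 100.02, 113 and 168 FPKM in KOAC8-6, KOAC10-5 and KOAC10-8 and at 89.0, 82.5, 98.8 and 101.03 FPKM in KOAC8-1, KOAC10-7, KOAC9-1 and KOAC10-2. KOAC10-8 stood far above the rest, and KOAC8-6 lay between KOAC9-1 and KOAC10-2 of the WT group. The mean of 127 ± 35.9 FPKM in KO against 92.8 ± 8.63 FPKM in WT was the largest log2 fold change of the 10, at 0.42 (SE 0.17, limma unadjusted p = 0.0461, adjusted p = 0.428). Without KOAC10-8 it was 0.20.

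Myl3 encodes the essential light chain of the ventricle (ENSMUSG00000059741, chr9:110741861-110769798, plus strand). Its levels were 48.4 FPKM in KOAC8-6, 51.1 FPKM in KOAC10-5 and 57.4 FPKM in KOAC10-8, against 41.6, 39.6, 38.6 and 50.6 FPKM in KOAC8-1, KOAC10-7, KOAC9-1 and KOAC10-2, and KOAC10-2 was the 1 WT embryo inside the KO range. With means of 52.3 ± 4.59 and 42.6 ± 5.44 FPKM, it had the smallest unadjusted p of the 10 (log2 fold change 0.29, SE 0.10, limma unadjusted p = 0.0258, adjusted p = 0.387). Pth1r on the opposite strand overlaps it and shares 2.46% of its stretches, at 26.7 to 34.2 FPKM.

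Tnni3, the cardiac troponin I gene (ENSMUSG00000035458, chr7:4518305-4524229, minus strand), was at 30.7, 25.7 and 33.7 FPKM in KOAC8-6, KOAC10-5 and KOAC10-8. In KOAC8-1, KOAC10-7, KOAC9-1 and KOAC10-2 it was at 24.2, 19.3, 24.0 and 29.6 FPKM. The lowest KO embryo was KOAC10-5, which lay under the WT embryo KOAC10-2. The means of 30.0 ± 4.02 and 24.3 ± 4.22 FPKM gave a log2 fold change of 0.30 (SE 0.15, limma adjusted p = 0.482).

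Nkx2-5, a homeobox factor of the heart (ENSMUSG00000015579, chr17:26838664-26845009, minus strand), gave 2.18 FPKM in KOAC8-6, 2.19 FPKM in KOAC10-5 and 3.34 FPKM in KOAC10-8. The WT levels were 1.94, 1.72, 2.09 and 2.39 FPKM in KOAC8-1, KOAC10-7, KOAC9-1 and KOAC10-2. KOAC10-8 stood apart at the top, and KOAC8-6 and KOAC10-5 were within the WT range. The log2 fold change was 0.22 (SE 0.14, limma adjusted p = 0.562), from means of 2.57 ± 0.667 and 2.04 ± 0.282 FPKM, and 0.07 without KOAC10-8. It was the least abundant of the 10, with an estimated 117 fragments in KOAC10-7, a counting error of 9.25%.

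Gata4, a zinc finger factor that is also expressed outside the heart, including in the liver region and gonad (ENSMUSG00000021944, chr14:63198922-63271692, minus strand), was at 6.87, 4.51 and 8.21 FPKM in KOAC8-6, KOAC10-5 and KOAC10-8. Its WT values were 6.53, 3.77, 5.23 and 4.87 FPKM in KOAC8-1, KOAC10-7, KOAC9-1 and KOAC10-2. The mean was 6.53 ± 1.88 FPKM in KO and 5.10 ± 1.14 FPKM in WT, a log2 fold change of 0.29 (SE 0.21, limma adjusted p = 0.616). Its levels were separated along with those of Afp. Gata4 was at 3.77 to 4.87 FPKM in the 3 embryos under 10 FPKM of Afp and at 5.23 to 8.21 FPKM in the other 4. Those 3 all belong to series KOAC10, and of that series only KOAC10-8 was among the other 4. The parts of liver transcripts and of series in this separation were not tested. None of the other 9 genes was separated by the amount of Afp, and how many of all genes are separated in this way was not counted. With log2 Afp in the model the log2 fold change was 0.19 (SE 0.13), without those 3 embryos 0.31 (SE 0.15), without KOAC10-5 alone 0.50 and without KOAC10-8 alone 0.13.

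The cardiac genes ranked the embryos similarly, with exceptions. KOAC10-8 was the highest embryo in 7 of the 10 genes, KOAC10-5 in Nppa and Myh7, and KOAC8-1 in Nppb. The lowest embryo was always WT, KOAC9-1 in 5 genes, KOAC10-7 in 4 and KOAC8-1 in Myl2. Averaged over the 9 genes without Gata4, the level relative to the mean of the 7 embryos (log2 scale) was 0.23 in KOAC10-8, 0.14 in KOAC10-5, 0.13 in KOAC10-2, 0.03 in KOAC8-6, -0.09 in KOAC8-1 and -0.22 in both KOAC10-7 and KOAC9-1. The WT embryo KOAC10-2 thus stood above the KO embryo KOAC8-6, and 8 of its 10 cardiac genes were above their own mean. Skeletal muscle markers were highest in KOAC9-1 (376 FPKM in sum) and lowest in KOAC10-8 (84.2 FPKM), the embryos at the opposite ends for the cardiac genes.

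**Figure D2:**
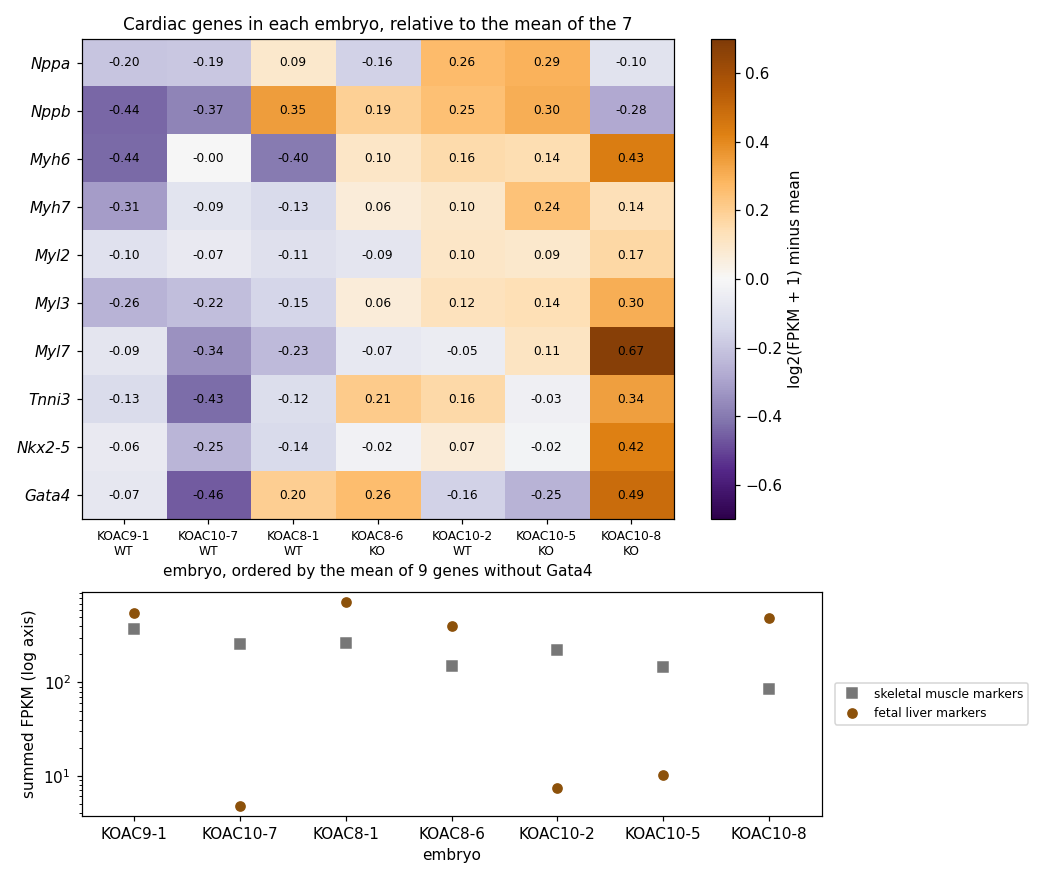
Above, log2(FPKM + 1) of each cardiac gene minus its mean over the 7 embryos, with purple for lower and orange for higher values and embryos ordered from the lowest to the highest mean of 9 genes. Below, the summed FPKM of the skeletal muscle and fetal liver markers in the same embryos on a log axis; KOAC10-8, at the right, has the highest cardiac mean (0.23) and the lowest skeletal muscle sum (84.2 FPKM).

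The number of cardiac genes past the unadjusted threshold depended on single embryos. It was 0 without KOAC10-8 (7.8% of all genes passed), without KOAC8-1 (1686 of 16066 genes) or without KOAC9-1 (7.85%), and 1 without KOAC10-7 (9.5%). It was 2 without KOAC10-5 (16.4%), 3 without KOAC8-6 (8.75%) and 4 without KOAC10-2 (9.96%). Without KOAC10-2, KO embryos lay above every remaining WT embryo in 6 genes (Myh6, Myh7, Myl3, Myl7, Tnni3 and Nkx2-5), where 8.49% of all genes did so. The count was 3 without KOAC8-6 (Myh7, Myl3 and Myl7; 9.5% of all genes) and 2 without KOAC10-5 (Tnni3 and Gata4; 14.7% of all genes), and 0 without any other single embryo. In the 6 muscle protein genes, Nkx2-5 and Gata4 the log2 fold change stayed above 0 whichever embryo was left out, and Nppa and Nppb went below 0.

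Ratios of paired genes were compared within each embryo, since a ratio does not change when both genes scale alike. Myh7 is also used by skeletal muscle, whose markers were lower in KO embryos. The part of that tissue in the ratios was not tested. Myh6 over Myh7, atrial against ventricular heavy chain, was 0.776, 0.706 and 0.933 in KOAC8-6, KOAC10-5 and KOAC10-8 and 0.628, 0.802, 0.692 and 0.789 in KOAC8-1, KOAC10-7, KOAC9-1 and KOAC10-2. The genotypes overlapped, and the difference of log2 ratios, KO minus WT, was 0.14 (exact permutation test over 35 arrangements, two-sided, p = 0.4, adjusted over the 3 ratios 0.543). For Myl7 over Myl2, the atrial against the ventricular regulatory light chain, the KO embryos had 0.698, 0.697 and 0.981 and the WT embryos 0.630, 0.567, 0.695 and 0.618. Every KO ratio was above every WT ratio, though KOAC10-5 and the WT embryo KOAC9-1 differed only in the third decimal. The mean was 0.792 ± 0.164 in KO and 0.628 ± 0.0525 in WT, a log2 difference of 0.32 (exact permutation test, two-sided, p = 0.0571, adjusted p = 0.171). The smallest p that 3 against 4 embryos can give is 0.0286, and without KOAC10-8 the difference was 0.15.

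Nppa over Nppb was 7.77, 9.82 and 11.9 in the KO embryos and 8.22, 12.0, 12.6 and 10.01 in the WT embryos, with full overlap and a log2 difference of -0.10 (exact permutation test, two-sided, p = 0.543, adjusted p = 0.543). Both series KOAC8 embryos, 1 of each genotype, had the lowest ratios.

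**Figure D3:**
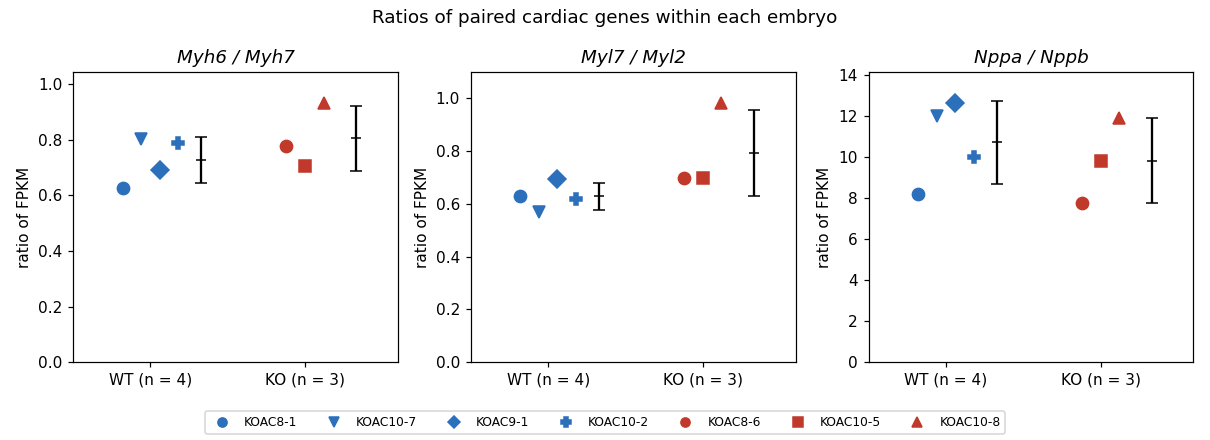
FPKM of the first gene divided by that of the second in every embryo, WT in blue and KO in red, with the mean and SD of each group as a black bar. In the middle panel (Myl7 over Myl2) the KO embryos sit between 0.697 and 0.981 and the WT embryos between 0.567 and 0.695, and the other panels overlap.

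Other genes of the heart gave a mixed picture beside the 10. Of 22 other sarcomere genes of embryonic heart muscle, 9 had a log2 fold change above 0 and 13 below, with a median of -0.10 and none at an adjusted p under 0.05. At an unadjusted p under 0.05, 1 was higher and 7 were lower in KO, where 6.19% of all genes were lower. Of these 22, 17 were listed as also expressed in skeletal muscle, and their median was -0.13, with 12 below 0. Of the 10 cardiac genes, Myh7 (0.26) and Myl3 (0.29) were so listed, and both were above 0. The listing was not tested in these embryos, and genes outside it may also be used by skeletal muscle. The 5 of the 22 not so listed had a median of 0.26. Above 0 were the thick filament protein gene Mybpc3 at 0.26 (SE 0.12), Nebl at 0.28 (SE 0.14), Lmod2 at 0.30 (SE 0.09) and Hspb7 at 0.15 (SE 0.11). The Z-disc gene Myoz2 was below at -0.75 (SE 0.16).

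Among the 17, the troponin C gene Tnnc1 was at 52.6 to 64.2 FPKM in KO and 73.3 to 101 FPKM in WT embryos (log2 fold change -0.49, SE 0.12), without overlap. Actn2, which encodes alpha-actinin of the Z-disc, was at -0.48 (SE 0.13), and Smyd1, a muscle methyltransferase gene, at -0.32 (SE 0.07). The limma adjusted p of each of these 3 was at least 0.274. Of 12 skeletal muscle markers tested, all 12 had a log2 fold change below 0 (median -0.82), and 10 had every KO embryo below every WT embryo. Over all genes tested, 5.98% had this separation, which Tnnc1 also showed. The fast light chain gene Mylpf was at -1.39 (SE 0.28) and the myogenic factor gene Myog at -1.01 (SE 0.26), again with none at an adjusted p under 0.05. How far skeletal muscle RNA sets the level of the 17 shared genes was not tested, and the embryo sums are those given above.

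**Figure D4:**
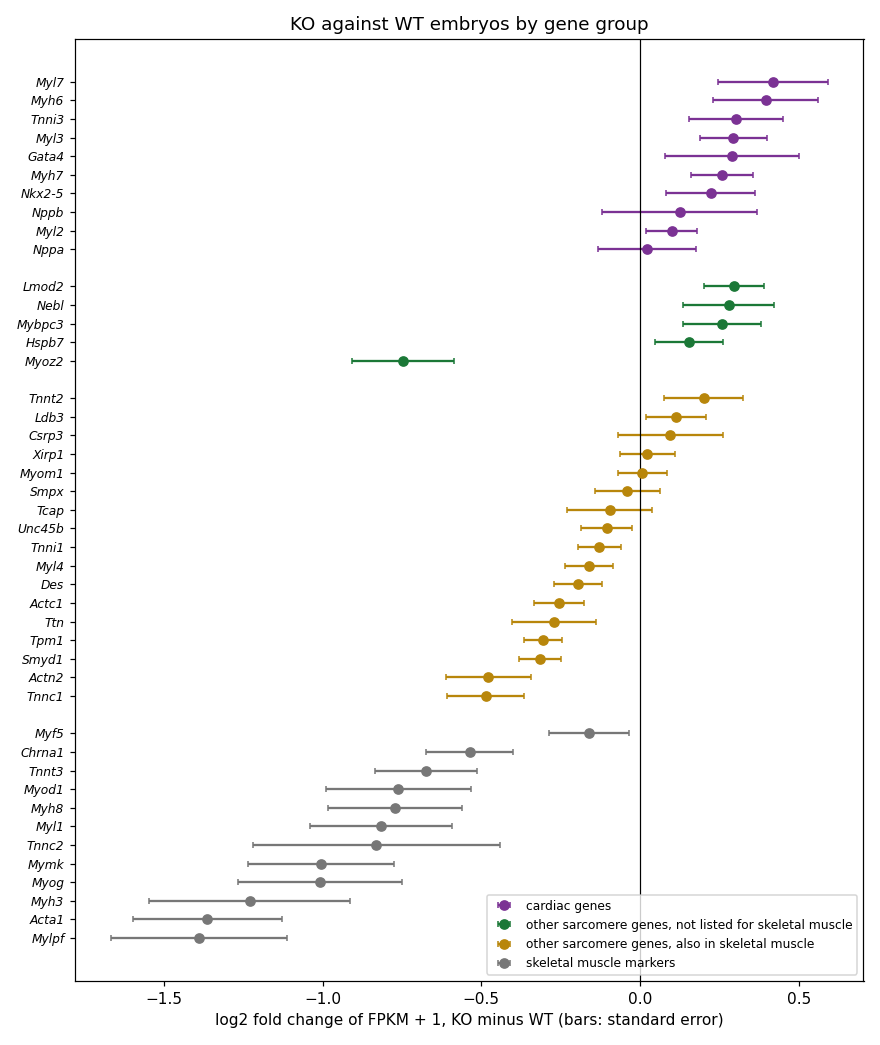
Log2 fold change of FPKM + 1, KO minus WT, with its standard error, for the 10 cardiac genes (purple) and skeletal muscle markers (grey). Other sarcomere genes are split into those not listed (green) and those listed (gold) as also expressed in skeletal muscle. All purple points are above 0 (0.02 to 0.42), and all grey points are below 0.

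The 17 other cardiac transcription factors had a median log2 fold change of 0.02, with 11 above 0 and 6 below. Tbx5, a T-box factor of the atria and forelimb, had the largest value, 0.64 (SE 0.42, limma adjusted p = 0.585), from 8.99, 9.61 and 10.04 FPKM in KO and 8.18, 7.61, 8.49 and 1.81 FPKM in WT embryos. The value of 1.81 FPKM belonged to KOAC10-2, and without that embryo the log2 fold change was 0.21. Mef2c, a factor of heart and skeletal muscle, was lower at -0.47 (SE 0.15, limma adjusted p = 0.354), and Gata5 at 0.28 (SE 0.13) and Hand2 at 0.27 (SE 0.13) were close to Gata4. Without KOAC10-8 they were at 0.16 and 0.17. Gata6, like Gata4, was lower in the embryos under 10 FPKM of Afp (3.82 to 4.40 FPKM) than in the other 4 (4.38 to 6.21 FPKM), with a slight overlap.

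Of 8 genes for the receptors, processing enzymes and signalling of the natriuretic peptides, 3 were above 0 and 5 below, with a median of -0.07 and none at an adjusted p under 0.05. The guanylyl cyclase receptor gene Npr1 was at 0.01 (SE 0.17), the clearance receptor gene Npr3 at -0.10 (SE 0.07) and the protein kinase gene Prkg1 at -0.22 (SE 0.10). Mme, which encodes the protease neprilysin that degrades the peptides, was at 8.90 to 11.6 FPKM in KO and 12.5 to 13.5 FPKM in WT embryos (log2 fold change -0.35, SE 0.09, limma adjusted p = 0.286). The proprotein convertase gene Furin was at -0.31 (SE 0.19), and at -0.13 without KOAC9-1.

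Of 9 genes of the epicardium and endocardium, 7 were below 0 and the median was -0.20. Postn, a matrix protein gene of cushions and fibroblasts, was at -0.66 (SE 0.16), Wt1 at -0.44 (SE 0.19) and Tcf21 at -0.43 (SE 0.17), while the mesothelial gene Upk3b was at 0.36 (SE 0.10), and none had an adjusted p under 0.05. Single embryos moved Wt1 to -0.69 (without KOAC8-6) and Tcf21 to -0.25 (without KOAC10-5), and Tcf21 was at -0.11 without the 3 embryos under 10 FPKM of Afp. Each of these genes is also expressed outside the heart. Fetal liver markers had a median of 0.24 over 8 genes (6 above 0 and 2 below) and erythroid markers -0.30 over 5. None of either list had an adjusted p under 0.05. The liver values had large standard errors, with Alb at 0.56 (SE 2.19) and Apoa2 at 0.34 (SE 1.70). Without the 3 embryos under 10 FPKM of Afp, Alb was at -1.19 and Apoa2 at -0.69. The liver median therefore gives no direction between the genotypes.

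The likeness of other genes to the cardiac profile was measured as the root mean square difference, over the 7 embryos, from the mean profile of the 9 genes without Gata4 on the centred log2 scale. Among 11497 genes that averaged 5 FPKM or more the median difference was 0.194. The nearest was Mybpc3 at 0.0341, which encodes cardiac myosin binding protein C, with 10.81 to 12.8 FPKM in KO and 8.56 to 12.2 FPKM in WT embryos. It was followed by Kif21a at 0.0501, Rspo2 at 0.0557, Plch1 at 0.0613, Crnde at 0.0615, Kcnk10 at 0.0676, Foxc2 at 0.0680, Zfp219 and Pou3f3 at 0.0693, and Hnrnph3 at 0.0701. Between the cardiac genes themselves, Myh7 and Myl3 were the most alike at 0.0926, and Nppb and Myl7 the least alike at 0.474. These are differences between single genes and cannot be set against the differences from an averaged profile. The order describes these 7 embryos only.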

How the data were processed

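Total RNA of 7 whole embryos (3 KO and 4 WT by their labels) was made into TruSeq RNA v2 libraries, which do not mark strand. The authors deposited 1 FPKM value per gene and embryo. The submitters' processing notes name Salmon, DESeq2, MultiQC and GRCm38, with no role or version. The authors also deposited a mean signal per gene (counts divided by size factors), which was used here only to estimate counts per embryo from the spacing of low FPKM values (73.2% to 84.1% of these lay within 0.1 read of a whole number), on the assumption that both scale alike within a gene. Their columns of log2 fold change, its standard error, p-value and adjusted p-value were not used, and 0 columns of values were left without an embryo.

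The 16095 genes averaging 1 FPKM or more were compared on log2(FPKM + 1) with limma 3.58.1 in R 4.3.3 (eBayes with a trend, two-sided), with Benjamini-Hochberg adjustment over all of them. Ratios were compared with exact permutation tests. The fit was tested on simulated data made from these 16095 genes for KO against WT: of 200 genes changed by a log2 fold change of 1, 173 were called, with 5 false calls. The simulated noise was normal and independent between genes. The change was larger than those of the 10 cardiac genes (0.02 to 0.42), so the share called does not apply to them. Nothing says that the series numbers (KOAC8, KOAC9, KOAC10) are litters. Of these, KOAC8 and KOAC10 hold both genotypes, and the series was used as a block in an alternative fit. The p-values measure the spread between these embryos.

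The cardiac genes and the lists were chosen with earlier results of these data known. Genes are named by rule: the 10, Slmap, in each list up to 4 genes with the largest absolute log2 fold change or an adjusted p under 0.05 with genes a statement turns on, and the 10 nearest profiles. Alternatives were a pseudocount of 0.1, no filter, a minimum mean of 5 FPKM, median-ratio scaling, quantile normalization, series as a block, log2 Afp as a covariate, embryo quality weights and each embryo left out. The series KOAC10 alone in the fit and the omission of the 3 embryos under 10 FPKM of Afp were added after seeing the data. Gene positions are from GENCODE M21, promoters from RefSeq (GRCm38.p6), and the windows printed were chosen after their matches were seen.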

Additional observations from a re-analysis of the deposited data

Results flagged for a closer look

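In groups of 4, the gap of the highest or lowest embryo to its neighbour, as a share of the whole range, was compared with Dixon's 95% critical value for 41 quantities (38 genes and 3 ratios) in the WT embryos. Chance gives about 2.05 such cases, and 4 were found, none of them among the 10 cardiac genes. KOAC9-1 was the highest WT embryo for Myoz2 (share 0.947, 6.12 FPKM against 3.72 to 3.85 FPKM in the others), for Actn2 (share 0.863, 23.7 against 16.5 to 17.4 FPKM) and for Furin (share 0.938, 23.8 against 13.6 to 14.2 FPKM). It also had the highest sum of skeletal muscle markers (376 FPKM). KOAC10-2 was the lowest for Tbx5 (share 0.868, 1.81 against 7.61 to 8.49 FPKM). The same embryo had the highest WT values of Nppa, Myh6, Myh7, Myl2, Myl3, Myl7, Tnni3 and Nkx2-5.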

How the results depend on the processing

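No cardiac gene had an adjusted p under 0.05 by limma in any of the 17 other settings, and their lowest adjusted p was 0.271, for Gata4 without KOAC10-5. The count with an unadjusted p under 0.05, which is 4, was 2 with series as a block (8.69% of all genes), 0 with embryo quality weights (13.6%), 0 in series KOAC10 alone (4.9%), 0 to 4 with 1 embryo left out and 3 or 4 in the rest. The number of genes without overlap ran from 0 to 6 with 1 embryo left out. The log2 fold change of Nppa, 0.02, was -0.0086 with quantile normalization, -0.043 with the series block, -0.047 with quality weights, -0.075 without the embryos under 10 FPKM of Afp and -0.12 to 0.11 with 1 embryo left out. That of Nppb, 0.12, was -0.0048 with the series block and -0.0048 to 0.30 with 1 embryo left out. The other 8 genes stayed above 0 in every setting that included them. The log2 difference of Nppa over Nppb ran from -0.22 to 0.044 (without KOAC8-6) with 1 embryo left out, that of Myl7 over Myl2 from 0.15 to 0.40 and that of Myh6 over Myh7 from 0.03 to 0.23. The cause of these changes was not tested. Nkx2-5 drops out at a minimum mean of 5 FPKM. Under the series block KOAC9, with 1 embryo, adds nothing to a fold change. Median-ratio size factors were equal in all embryos, so that scaling changed no value. Myh6 was at 0.21 in series KOAC10 alone and at 0.68 without the embryos under 10 FPKM of Afp. Counting error limits Nkx2-5 and Nppb most.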
